A study of Mus musculus with 8 samples.

Results

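Fos, Jun, Egr1, Egr2, Egr3, Dusp4, Dusp6 and Myc are immediate early genes and phosphatases of the MAPK pathway, and they were taken by gene symbol from a mouse immune gene panel measured in peritoneal tumors. All 8 were on the panel, out of 750 endogenous genes. Tumors grew from MC38 cells, a mouse colon cancer line, after 500000 cells were placed in the peritoneum of male wild-type C57BL/6 mice aged 7 to 8 weeks. The mice received PBS or the STING agonist RR-CDA, a synthetic cyclic dinucleotide that activates the cytosolic DNA sensing adaptor STING, as 2 intraperitoneal injections of 15 µg that began on day 7. Tumors were collected 10 days after the first injection, and total RNA of the whole tumor tissue was counted on the NanoString nCounter platform, in which color-coded probes are counted without amplification. The groups were 4 tumors with PBS and 4 tumors with the STING agonist, and both shared the strain, genotype, sex and tumor line. The comparison asked how these genes stood in treated against control tumors at that time point, and these samples hold no earlier one.

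Immediate early genes are transcribed within minutes of a growth factor, cytokine or stress signal, without the need for new protein synthesis, and their transcripts decay quickly. Fos and Jun proteins pair to form the transcription factor AP-1, the Egr genes encode zinc finger transcription factors, and Myc drives growth and metabolism. Dusp4 and Dusp6 encode dual-specificity phosphatases that remove phosphate from MAP kinases, and because ERK signaling induces them, they act as its negative feedback.

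The endogenous counts summed to 241724 to 403150 in control tumors (median 293612) and to 241506 to 414698 in treated tumors (median 308126). In the 358 genes that averaged from 20 to under 300 counts, PBS 2 and PBS 4 differed by less than sampling noise. Chi-square divided by its degrees of freedom was 0.404 for this pair, where independent counts of the same RNA give about 1. It was 5.89 to 12.6 for the 11 other pairs of tumors of the same group. In the 159 more abundant genes the value of PBS 2 and PBS 4 was 3.11, more than sampling noise, and that of the other pairs 29.8 to 173. The counts of PBS 2 and PBS 4 were therefore averaged and treated as 1 sample, which leaves 3 controls and 4 treated tumors. The labels list them as separate replicates, and whether they are 1 tumor or library measured again cannot be told from the counts. Why their moderate counts differed by less than independent counts do was not tested. Scaled separately, PBS 2 and PBS 4 had 239 and 264 normalized counts of Fos, 390 and 438 of Dusp6, 920 and 1045 of Jun and 1174 and 1355 of Myc. With all 8 tumors kept separate, 0 of 8 members had an adjusted p under 0.05 by edgeR. To normalize, each tumor's counts were divided by the geometric mean of its 20 housekeeping genes, relative to the average of that value over the samples. Probes differ in how well they capture their transcript, so a level is compared here between tumors and not between genes. The background of the assay, the mean plus 2 SD of 8 negative control probes, was 8.62 counts on average.

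Fos, Jun, Egr1, Dusp4, Dusp6 and Myc were above the background of their own sample in 7 of 7 samples, Egr3 in 4 of 7 and Egr2 in 1 of 7. By the quasi-likelihood test of edgeR, 0 of 8 members had an adjusted p under 0.05, where the panel as a whole had 0 of 750 genes (0.0%). The Wald test of DESeq2 gave 52 of 536 genes (9.7%) at that threshold and 0 of the 6 members for which it returned an adjusted p, which leaves out Egr2 and Egr3. At an unadjusted p under 0.05, 0 of 8 members passed, against 143 of 750 genes (19.1%), of which 133 were higher (17.7%) and 10 lower (1.33%) after treatment. The Wald test of DESeq2, limma and the methods' t-test on log2 values also gave 0 of 8 members at an unadjusted p under 0.05. The groups overlapped in every member, while they did not overlap in 137 of 750 genes (18.3%). The members' median log2 fold change was 0.17, and that of all genes was 0.21, and under TMM normalization they were -0.07 and -0.02. With 8 members, a share of 0 against these backgrounds does not set the members apart from the panel.

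**Figure D1:**
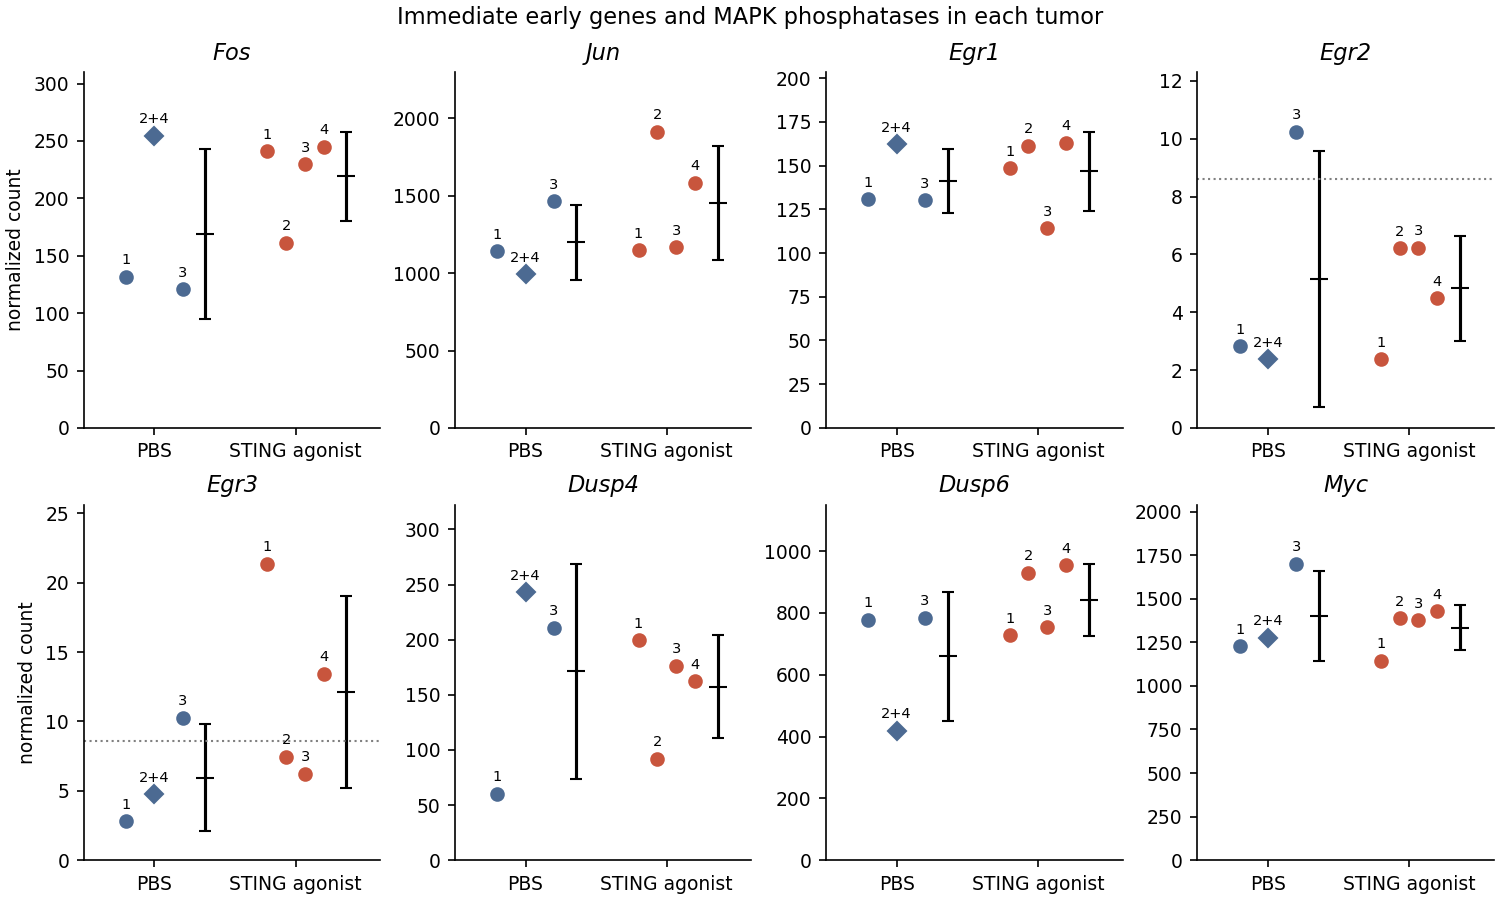
Normalized counts of each member in the 3 control samples and 4 treated tumors, with replicate numbers beside the points, a diamond for the average of PBS 2 and PBS 4, and black bars for the mean ± SD. Groups overlap in every panel, and the dotted line in the Egr2 and Egr3 panels is the average background of 8.62 counts before scaling. A sample can lie below this line and above its own background, as STING 2 does for Egr3.

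Fos, the partner of Jun in AP-1 (NM_010234.2), had 132 normalized counts in PBS 1, 255 in the averaged PBS 2 and 4, and 121 in PBS 3, and 241, 162, 230 and 245 in STING 1 to 4. All 4 treated tumors lay above PBS 1 and PBS 3, and all 4 lay below PBS 2 and 4. The means were 169 ± 74.4 (SD, n = 3) and 219 ± 39.0 (SD, n = 4), a fold of 1.30 and a log2 fold change of 0.38 (95% interval -0.28 to 1.04, adjusted p = 0.514, edgeR). The exact permutation test gave p = 0.257, and with 3 samples against 4 its smallest possible p is 0.029. Without PBS 2 and 4 the log2 fold change of Fos was 0.80, with an unadjusted p of 0.0072 and an adjusted p of 0.289 by edgeR, and it was 0.23 without PBS 1 and 0.19 without PBS 3, so its size depends on each control.

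Jun (NM_010591.2) had 1142, 993 and 1466 normalized counts in PBS 1, PBS 2 and 4, and PBS 3, and 1148, 1915, 1166 and 1584 in STING 1 to 4. STING 2 and STING 4 were above every control, and STING 1 and STING 3 lay next to PBS 1. The group means were 1200 ± 242 (SD, n = 3) and 1453 ± 368 (SD, n = 4), with a log2 fold change of 0.28 (95% interval -0.24 to 0.79, adjusted p = 0.552, edgeR) and an exact permutation p of 0.343. Without STING 2, the tumor with the most Jun, the log2 fold change was 0.11, and it was 0.45 without PBS 3 and 0.16 without PBS 2 and 4.

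Among the 8 members, a table of promoter windows from RefSeq (GRCm38.p6) held Fos, Jun, Egr2 and Dusp6. The 250 bases before the start of Fos, Jun and Dusp6 are shown because these members are compared in pairs below, where no pair passed after adjustment, and Egr2 is left out because it lay near background. Fos lies at chr12:85473640-85473889 on the plus strand, Jun at chr4:95052223-95052472 on the minus strand and Dusp6 at chr10:99262981-99263230 on the plus strand. Each sequence reads 5′ to 3′ toward the start, and capitals mark every match on either strand. The motifs searched were TGACG of cyclic AMP response elements, TGANTCA of AP-1 sites, the longer TGACNTCA bound by AP-1 and ATF factors, CCAAT of NF-Y sites, TATAAA of the TATA box, CCGGAA of ETS sites and the CArG box of SRF.
Fos: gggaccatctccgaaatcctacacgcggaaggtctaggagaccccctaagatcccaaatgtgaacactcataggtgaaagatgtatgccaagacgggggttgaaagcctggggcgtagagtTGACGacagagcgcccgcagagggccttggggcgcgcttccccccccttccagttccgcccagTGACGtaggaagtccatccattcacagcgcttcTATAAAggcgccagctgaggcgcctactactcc
Jun: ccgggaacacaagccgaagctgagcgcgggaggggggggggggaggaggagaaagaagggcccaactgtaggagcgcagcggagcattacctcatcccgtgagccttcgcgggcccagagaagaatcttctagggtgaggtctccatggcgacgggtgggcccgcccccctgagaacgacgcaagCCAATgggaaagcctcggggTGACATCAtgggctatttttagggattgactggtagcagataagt
Dusp6: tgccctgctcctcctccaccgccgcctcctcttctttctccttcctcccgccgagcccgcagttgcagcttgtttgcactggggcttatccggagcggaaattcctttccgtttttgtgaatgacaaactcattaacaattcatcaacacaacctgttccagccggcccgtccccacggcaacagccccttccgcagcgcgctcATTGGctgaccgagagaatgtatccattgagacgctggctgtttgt
The Fos window held TGACG at -129 and -66 and TATAAA at -33, each on the strand of the gene, where positions give the first base of a match relative to the start. The Jun window held TGACNTCA at -45 and CCAAT at -65. The Dusp6 window held only CCAAT, on the opposite strand, at -46. TGACNTCA contains TGACG where its N is G, which was not so in the window of Jun, and no matches shown share bases. Of 32851 windows of the same length, TGACG was in 17.8%, TGANTCA in 6.75%, TGACNTCA in 7.49%, CCAAT in 33.8%, TATAAA in 12.4%, CCGGAA in 12.0% and the CArG box in 1.47%. These are matches of letters in a short window and were not measured here as bound sites. Bases farther upstream than 250 were not searched, so a motif without a match here, such as the CArG box, may still lie there.

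Egr1 (NM_007913.5), a rapidly induced zinc finger factor, had 131, 162 and 130 normalized counts in the control samples in the same order and 148, 162, 114 and 163 in STING 1 to 4. The highest and the lowest of the 7 values were both treated tumors, STING 4 and STING 3, and they differed by a factor of 1.43. The means of 141 ± 18.3 (SD, n = 3) and 147 ± 22.7 (SD, n = 4) gave a log2 fold change of 0.06 (95% interval -0.39 to 0.51, adjusted p = 0.914, edgeR), which turned to -0.20 under TMM normalization. Egr2 (NM_010118.2), a relative of Egr1 known from myelin and T cell biology, had 2 to 14 counts before scaling and exceeded the background of its sample in PBS 3 alone. At this depth no difference in Egr2 was detectable (log2 fold change -0.18, 95% interval -1.49 to 1.13). Egr3 (NM_018781.2), also of the Egr family, had 2.82, 4.74 and 10.3 normalized counts in the controls and 21.4, 7.45, 6.23 and 13.5 in STING 1 to 4. STING 1 and STING 4 were above every control, and all of these values rest on 2 to 18 counts. The log2 fold change of Egr3, 0.96, was the largest of the members, with a 95% interval of -0.34 to 2.26 and an adjusted p of 0.395 by edgeR. It was 1.67 without PBS 3 (unadjusted p 0.0342 and adjusted p 0.206 by edgeR) and 0.57 without STING 1.

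Dusp4 (NM_176933.4), a nuclear phosphatase of ERK, JNK and p38, had 60.2, 243 and 211 normalized counts in PBS 1, PBS 2 and 4, and PBS 3, and 199, 91.9, 177 and 162 in STING 1 to 4. PBS 1 and STING 2 were low and the other 5 samples lay between 162 and 243, so that the spread ran within the groups. The means of 171 ± 97.5 (SD, n = 3) and 158 ± 46.3 (SD, n = 4) gave a log2 fold change of -0.12 (95% interval -1.13 to 0.89, adjusted p = 0.925, edgeR). It was -0.52 without PBS 1 and 0.21 without PBS 2 and 4. The SD of Dusp4 within the groups, 0.79 on the log2 scale, exceeded that of 92.5% of the 517 genes that averaged 20 or more normalized counts, whose median SD was 0.36. The other members of that abundance stood at 61.5% for Fos, 50.3% for Dusp6, 46.6% for Jun, 25.9% for Egr1 and 22.1% for Myc.

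Dusp6 (NM_026268.2), a cytoplasmic phosphatase selective for ERK, had 778, 419 and 784 normalized counts in the control samples and 728, 930, 754 and 955 in STING 1 to 4. PBS 2 and 4 stood apart as the lowest, and STING 2 and STING 4 were above every control. The means were 660 ± 209 (SD, n = 3) and 842 ± 118 (SD, n = 4), with a log2 fold change of 0.35 (95% interval -0.19 to 0.88, adjusted p = 0.456, edgeR) and an exact permutation p of 0.257. Without PBS 2 and 4, the log2 fold change was 0.11 (adjusted p = 0.802, edgeR).

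The control with low Dusp6 was also the lowest control in Ptprc, in 8 of 9 macrophage and monocyte markers, in 10 of 12 T cell markers and in 4 of 5 natural killer cell markers. The same control was lowest in 2 of 6 B cell, 2 of 5 dendritic cell and 2 of 6 neutrophil markers. In PBS 1, PBS 2 and 4, and PBS 3, the dendritic cell markers summed to 41.4, 61.6 and 54.2, and the mesothelial gene Msln had 95.9, 240 and 152 normalized counts. Among the macrophage and monocyte markers, Cd14 was the exception, with 64.9, 110 and 97.4 normalized counts in PBS 1, PBS 2 and 4, and PBS 3. Csf1r, the receptor of the macrophage growth factor CSF1, had 212, 37.9 and 208 normalized counts in PBS 1, PBS 2 and 4, and PBS 3, and 292, 318, 232 and 353 in STING 1 to 4. Ptprc, the gene of the leukocyte antigen CD45, had 110, 42.6 and 113 in the controls and 261, 169, 142 and 272 after treatment. Of 11 macrophage and monocyte markers, 9 were on the panel, with the most counts from the Cd68 probe, and their summed normalized counts were 1873, 1021 and 2468 in the controls and 2821, 2007, 2348 and 2770 in STING 1 to 4. Not all of them were higher after treatment: Cd163 had 44.2, 18.95 and 64.4 normalized counts in the controls and 9.495, 16.15, 21.8 and 20.6 in STING 1 to 4 (log2 fold change -1.32, unadjusted p 0.0195, adjusted p = 0.207, edgeR), and Mrc1 had a log2 fold change of -0.27 (adjusted p = 0.823, edgeR). With each sample left out, the value of Mrc1 ran from -0.645 to 0.083, so its direction depended on single samples. Of 8 neutrophil markers, 6 were on the panel, with the most counts from the S100a8 probe and with Mpo and Elane averaging below background. Their sums were 336, 623 and 390 in the controls and 688, 316, 586 and 429 in STING 1 to 4. T cell markers, 12 of 12 on the panel with the most counts from the Cd3d probe and 4 averaging below background, summed to 228, 141 and 254 in the controls and 504, 272, 289 and 465 in STING 1 to 4. Natural killer cell markers, 5 of 5 with the most counts from the Klrk1 probe and 1 averaging below background, summed to 88.8 to 124 in the controls and 120.5 to 203.5 in treated tumors. The log2 fold change of Klrk1 was 1.155 (adjusted p = 0.211, edgeR) and that of Eomes -0.15, while the median of the 5 was 0.099. The part of these cell types in the values of Dusp6 and Fos was not tested. Bulk RNA of a tumor cannot tell fewer cells of a type from less RNA per cell.

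**Figure D2:**
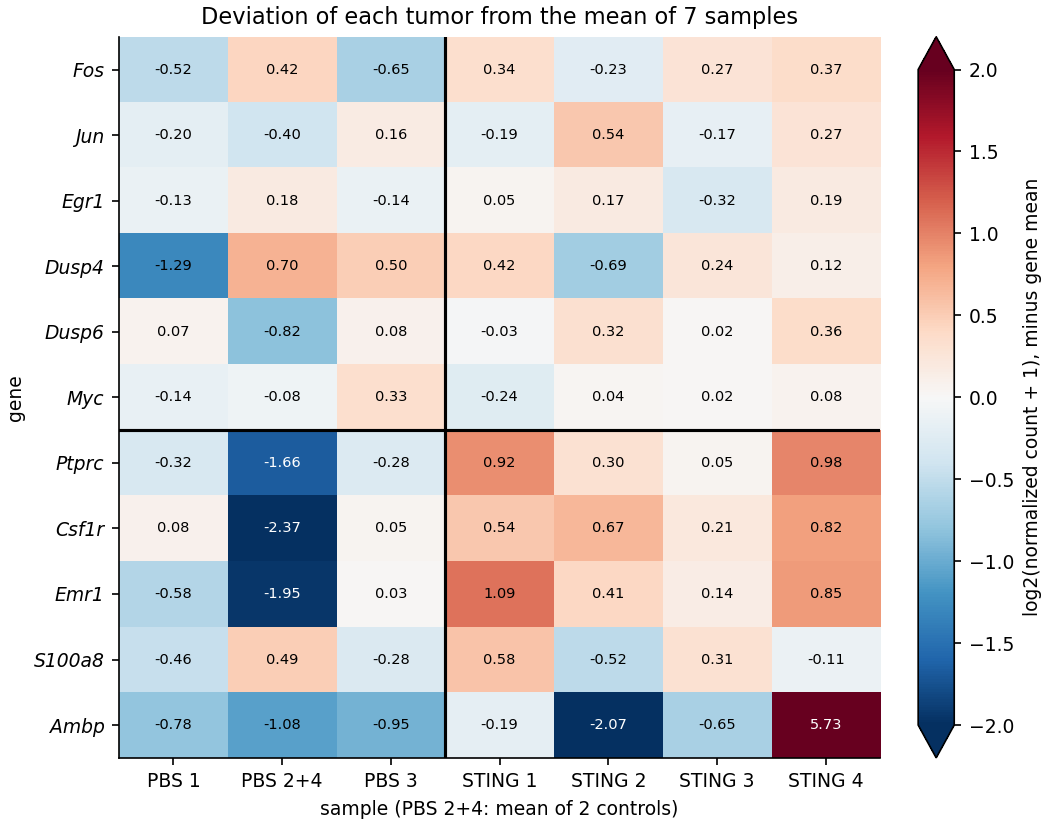
Deviation of each sample from the mean of the 7 samples, on the log2(normalized count + 1) scale, for the 6 members with a mean of at least 20 normalized counts (upper block) and for 5 cell type markers (lower block). PBS 2 and 4 is lowest for Jun, Dusp6, Ptprc, Csf1r and Emr1 and highest for Fos and Dusp4, and the hepatocyte gene Ambp is high in STING 4 alone.

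Myc (NM_010849.4), a transcription factor that is also a target of mitogenic signaling, had 1228, 1277 and 1701 normalized counts in the control samples and 1144, 1389, 1377 and 1429 in STING 1 to 4. The extremes were PBS 3 and STING 1, and the other 5 samples lay between 1228 and 1429. The means of 1402 ± 260.0 (SD, n = 3) and 1335 ± 129 (SD, n = 4) gave a log2 fold change of -0.07 (95% interval -0.44 to 0.30, adjusted p = 0.877, edgeR), the narrowest interval of the members. It was 0.09 without PBS 3.

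Scaling shifted all genes together. Over the whole panel, the median of the log2 fold changes was 0.21 with housekeeping genes and -0.02 with TMM normalization, -0.04 with the size factors of DESeq2 and 0.01 with the total count. The split of genes at an unadjusted p under 0.05 went from 133 higher and 10 lower to 87 and 40 with TMM, 81 and 45 with DESeq2 size factors and 68 and 31 with the total count. With TMM, the log2 fold change was 0.07 for Fos, 0.07 for Jun, 0.14 for Dusp6, -0.29 for Myc and -0.39 for Dusp4. Relative to the median of all genes, Fos stood at 0.17 with housekeeping genes and 0.10 with TMM, Dusp6 at 0.14 and 0.16, and Jun at 0.06 and 0.09. Myc stood at -0.28 and -0.27 and Dusp4 at -0.33 and -0.37. In each of these scalings, 4 of 8 members lay above the median of all genes and 0 of 8 reached an unadjusted p under 0.05 by edgeR.

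**Figure D3:**
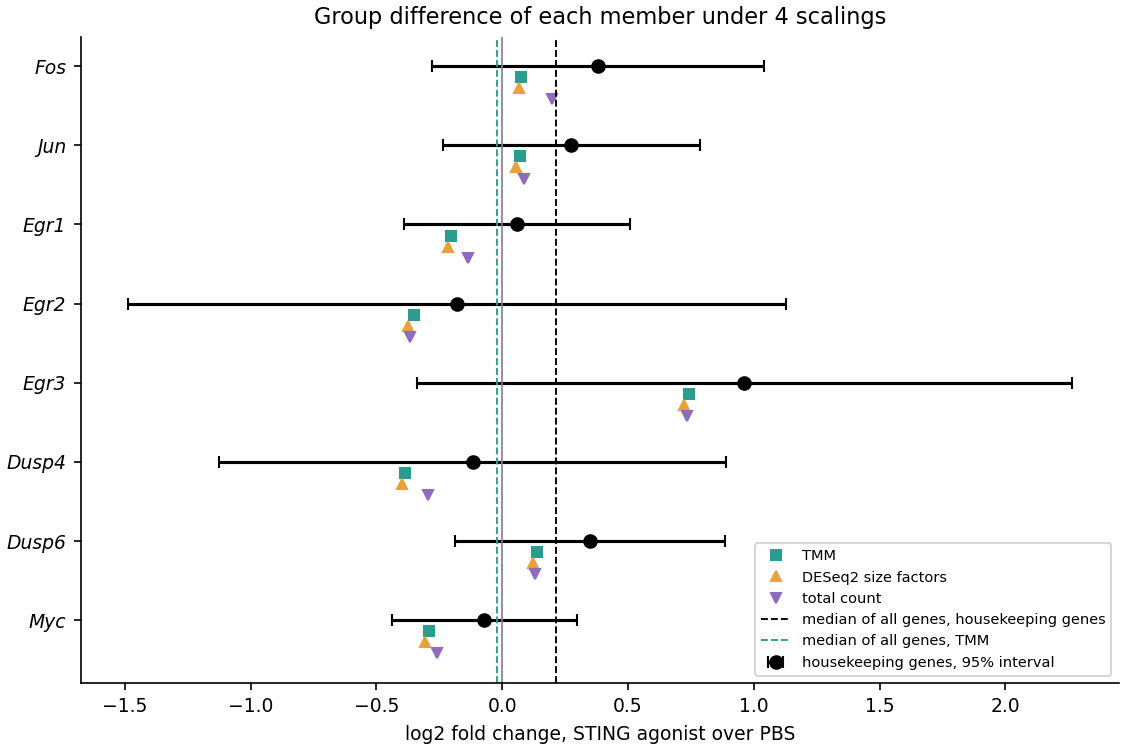
Log2 fold change of treated over control tumors for each member, with housekeeping scaling and its 95% interval (black) and with 3 other scalings (colored symbols), beside the median of all genes (dashed lines, 0.21 with housekeeping genes and -0.02 with TMM). Every interval includes 0, and Egr1 moves from 0.06 to -0.20 under TMM.

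Across the 7 samples the pairs of members went both ways, and none passed after adjustment. Of the 15 pairs among the 6 more abundant members, 8 had a positive and 7 a negative Pearson r of log2(normalized count + 1), between -0.475 and 0.775. Over all 28 pairs, 2 had an unadjusted exact permutation p under 0.05 and 0 an adjusted one, the lowest being 0.156. Jun and Dusp6 had the highest r among the abundant members, 0.775 (exact permutation p = 0.0373, adjusted 0.522), with a Spearman rho of 0.857 (exact permutation p = 0.0238, adjusted 0.438). Without the 2 samples farthest from the median of Jun the r was 0.711, and with group means subtracted it was 0.718. Jun and Myc had an r of 0.542 (exact permutation p = 0.220, adjusted 0.726), or 0.784 without the 2 farthest samples and 0.689 with group means subtracted. Fos and Dusp4 had an r of 0.538 (exact permutation p = 0.214, adjusted 0.726), or 0.944 without the 2 farthest samples and 0.603 with group means subtracted.

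Fos and Jun, the partners in AP-1, had an r of -0.338 (exact permutation p = 0.426, adjusted 0.726) and a rho of -0.286 (exact permutation p = 0.556, adjusted 0.882). With group means subtracted, that r was -0.708, and without the 2 samples farthest from the median of Fos it was -0.781. Fos and Dusp6 had an r of -0.353 (exact permutation p = 0.509, adjusted 0.726) and a rho of -0.357 (exact permutation p = 0.444, adjusted 0.882), or -0.514 without the 2 farthest samples and -0.869 with group means subtracted. Dusp4 and Dusp6, both feedback phosphatases, had an r of -0.475 (exact permutation p = 0.281, adjusted 0.726) and a rho of -0.571 (exact permutation p = 0.200, adjusted 0.560), and -0.868 without the 2 farthest samples. Egr2 and Myc had the highest r of all pairs, 0.914 (exact permutation p = 0.0056, adjusted 0.156), with a rho of 0.750 (exact permutation p = 0.0663, adjusted 0.438) and 0.884 without the 2 farthest samples, but Egr2 lay near background.

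**Figure D4:**
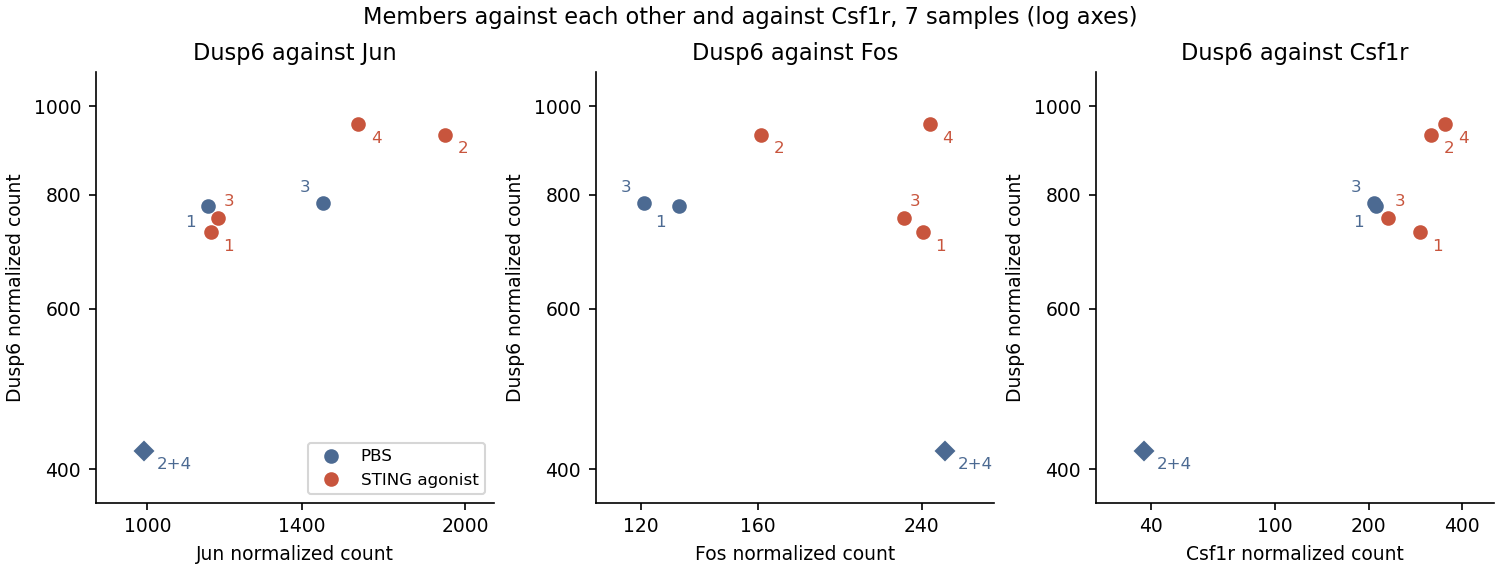
Normalized counts of Dusp6 against Jun, Fos and Csf1r in the 7 samples (log axes), with replicate numbers, blue for PBS, red for the STING agonist and a diamond for the average of PBS 2 and PBS 4. Dusp6 was highest in STING 2 and STING 4, where Jun was highest too, and lowest in PBS 2 and 4, which had the most Fos and the least Csf1r.

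For each of the 6 more abundant members, the 3 genes with the highest r to it across the 7 samples were found after group means were subtracted, among the 516 other genes that averaged 20 or more normalized counts. Fos was nearest to Bcl2l1 (0.982), an inhibitor of apoptosis, Cdh5 (0.978), the cadherin of endothelial junctions, and Lgals3 (0.969), which encodes galectin-3. Lgals3 had 22470 normalized counts in PBS 2 and 4, where Fos was highest, and 9060 to 14570 elsewhere. Jun was nearest to A2m (0.970), a protease inhibitor with only 3.55 to 13.9 normalized counts in the controls, near background, the proteasome subunit gene Psmd7 (0.938) and the cytokine receptor kinase gene Jak1 (0.924). Egr1 was nearest to the chemokine gene Cx3cl1 (0.873), to Il34 (0.83), a ligand of the CSF1 receptor, and to the integrin gene Itga1 (0.807). Without the 2 samples farthest from the median of Egr1, the last 2 were 0.562 and 0.517.

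Dusp4 was nearest to Col4a1 (0.982), a collagen of basement membranes, the ubiquitin ligase gene Itch (0.971) and the autophagy gene Atg16l1 (0.958). Dusp6 was nearest to Tgfbr1 (0.986), a receptor of TGF-β, to Eng (0.967), a co-receptor of endothelial cells, and to Csf1r (0.953), and the r to Csf1r was 0.892 without the 2 samples farthest from the median of Dusp6. Myc was nearest to Il2ra (0.920), a subunit of the IL-2 receptor, the junction gene Jam3 (0.906) and the phospholipase gene Pla2g6 (0.848). No member was among the 3 nearest genes of another member. Each is the top of 516 correlations over 7 samples and is given as a description.

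Receptors that feed the RAS-ERK cascade were read from a list of 24 receptor tyrosine kinases, 12 of them on the panel. None passed at an adjusted p under 0.05 by edgeR, and 2 were higher and 0 lower before adjustment (p under 0.05, 16.7% higher, against 17.7% of all genes), with a median log2 fold change of 0.11. Kdr, the main VEGF receptor, had 37.6, 32.0 and 60.8 normalized counts in the controls and 84.3, 116, 66.5 and 95.9 in STING 1 to 4, without overlap (log2 fold change 1.05, SE 0.31, adjusted p = 0.181 by edgeR and 0.0284 by the Wald test of DESeq2). Egfr had 19.7, 22.5 and 34.4 in the controls and 53.4, 34.8, 40.5 and 111 in STING 1 to 4, and its log2 fold change of 1.23 was 0.73 without STING 4 (adjusted p = 0.223 with that tumor, edgeR). Hepatocyte markers were highest in that same tumor, in 10 of the 10 on the panel out of 19 listed. Their sums were 63.9, 52.1 and 105 in the controls, 71.2, 52.2 and 65.4 in STING 1 to 3 and 1528 in STING 4, with the most counts from the Ambp probe, and their part in the value of Egfr was not tested. The lowest log2 fold change among the abundant receptors was that of Igf1r, -0.35 (-0.19 without PBS 3 and -0.59 under TMM), and under TMM the median of the list was -0.14, and before adjustment 2 receptors were higher and 3 were lower (p under 0.05), against 11.6% and 5.33% of all genes.

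Of 37 kinases and adaptors of the RAS-MAPK cascade, 14 were on the panel, with 0 at an adjusted p under 0.05 by edgeR, 1 higher and 0 lower before adjustment (p under 0.05, 7.14% higher, against 17.7% of all genes), and a median of 0.11, or -0.13 under TMM. The 1 was Map3k1, a kinase upstream of JNK, with 29.1, 35.5 and 35.9 normalized counts in the controls and 89.0, 38.5, 49.8 and 56.5 in STING 1 to 4 (log2 fold change 0.80, SE 0.34, adjusted p = 0.246, edgeR). Its unadjusted p was 0.0426, and 0.102 under TMM, and without STING 1 the log2 fold change was 0.53. Mapk8, the gene of JNK1, had the lowest log2 fold change of the abundant kinases, -0.10 (-0.224 to -0.005 with each sample left out). Of 40 other AP-1, CREB, ETS, SRF and immediate early factors, 10 were on the panel, with 0 in either direction at an unadjusted p under 0.05 and a median of 0.04, or -0.185 under TMM. Creb5 had the highest value, 0.44 (adjusted p = 0.425, edgeR), and Crebbp, a coactivator, the lowest among the abundant ones, -0.01. None of 21 further MAPK phosphatases and ERK feedback inhibitors was found on the panel by symbol, so Dusp4 and Dusp6 were the only listed genes of this kind. ERK activity and its feedback were not measured.

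Secreted and surface targets of AP-1 and EGR factors had 18 of 32 genes on the panel, with 0 at an adjusted p under 0.05 by edgeR, 5 higher and 0 lower before adjustment (p under 0.05, 27.8% higher, against 17.7% of all genes), and a median log2 fold change of 0.34. Ptgs2, which encodes the prostaglandin enzyme COX-2, had 125, 223 and 196 normalized counts in the controls and 824, 215, 223 and 453 in STING 1 to 4. STING 1 and STING 4 stood high, and the other pair of treated tumors lay at the level of PBS 2 and 4 (log2 fold change 1.24, SE 0.48, adjusted p = 0.223, edgeR). Tnfsf10, the death ligand TRAIL, had 37.6, 32.0 and 49.8 in the controls and 86.6, 79.5, 69.6 and 98.6 in STING 1 to 4, without overlap (log2 fold change 1.06, SE 0.26, adjusted p = 0.171, edgeR). Lif, a cytokine of the IL-6 family, Plau, the urokinase gene, and Icam1, an adhesion molecule, had log2 fold changes of 1.20, 1.03 and 0.91 (adjusted p = 0.181, 0.235 and 0.217, edgeR). The groups overlapped in Lif and Plau but not in Icam1. Cd44 had the lowest value among the abundant targets, -0.08. Under TMM the median of the list was 0.12, and Plau, Tnfsf10, Lif and Icam1 had an unadjusted p under 0.05 but Ptgs2 did not. Without STING 4, Ptgs2, Tnfsf10 and Lif did, and Plau and Icam1 did not. The log2 fold change of Ptgs2 was 0.72 without STING 1, and that of Plau was 1.56 without PBS 3. The Wald test of DESeq2 gave Tnfsf10 and Lif an adjusted p of 0.0110 and 0.0284. Ptprc was higher in treated tumors by a log2 fold change of 1.24 (adjusted p = 0.181, edgeR), and its part in these genes was not tested.

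**Figure D5:**
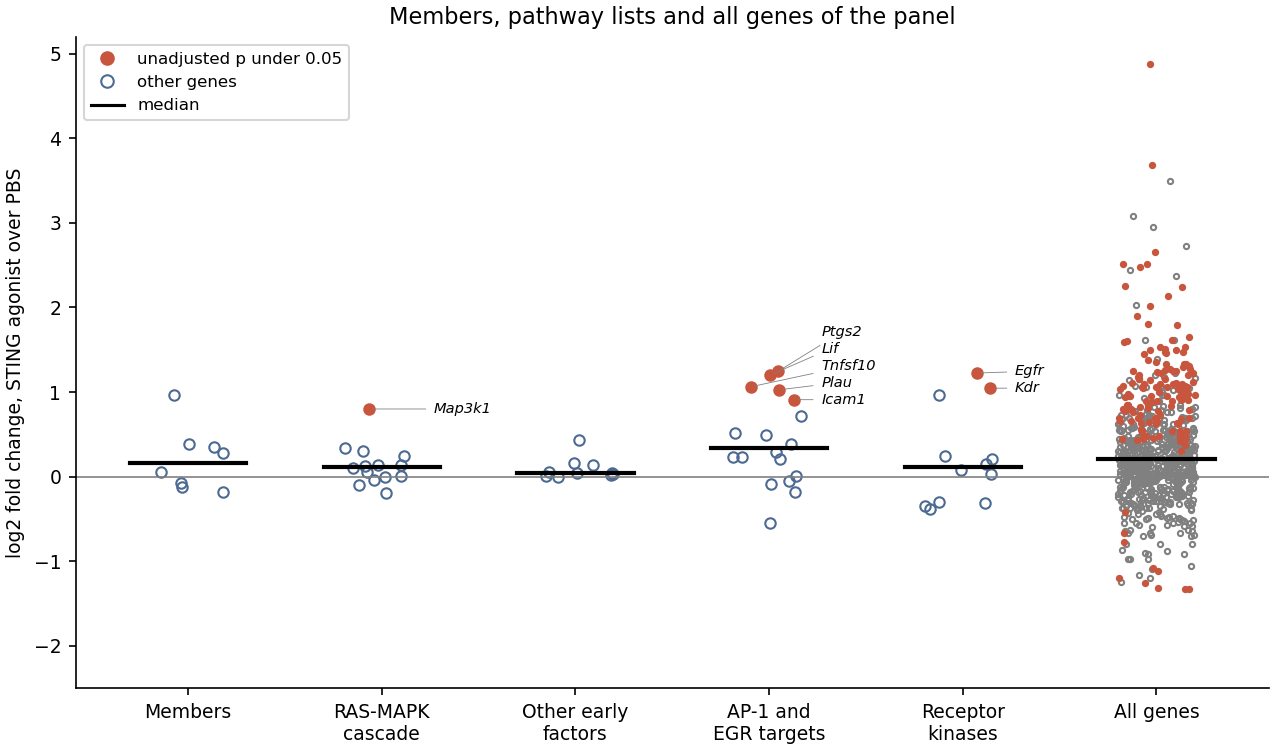
Log2 fold change of treated over control tumors for the 8 members, 4 lists of pathway genes and all 750 genes, each point a gene, with red for an unadjusted p under 0.05 (edgeR) and a black bar for the median. The members' median is 0.17 and that of all genes 0.21, and the named red genes among the lists lie between 0.80 and 1.24.

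The sampled tissue was checked against its markers. Of 10 markers of epithelium and colon tumor cells, 3 were on the panel, and the Cdh1 probe had the most counts. Epcam had 3.76 to 17.8, Cdh1 11.2 to 35.1 and Muc1 10.3 to 27.3 normalized counts. They went both ways: the log2 fold change was -0.39 for Epcam, -0.70 for Cdh1 and 0.63 for Muc1 (adjusted p = 0.768, 0.332 and 0.374, edgeR). The sums of these 3 markers were 47.0, 48.6 and 63.7 in the controls and 55.8, 29.8, 50.9 and 45.7 in STING 1 to 4. Fibroblast and smooth muscle genes, 6 of 10 on the panel, summed to 14090 to 15450 in the controls and 11130 to 14070 in treated tumors, with the most counts from the Col3a1 probe. These genes went both ways: the log2 fold change was -0.42 for Col3a1 and 0.73 for Col1a1 (adjusted p = 0.217 and 0.243, edgeR), with a median of -0.18. Endothelial genes, 7 of 7 on the panel, summed to 385, 550 and 522 in the controls and 667, 652, 693 and 644 in STING 1 to 4, with the most counts from the Pecam1 probe. Single genes differed: the log2 fold change ran from 0.03 for Tek, 0.21 for Tie1 and 0.25 for Pecam1 to 1.05 for Kdr, with a median of 0.43. Under TMM it was -0.20 for Tek, -0.02 for Tie1 and -0.001 for Pecam1, and above 0 for the other endothelial genes. The members are expressed in many cell types, so the cells that carried these counts are not known from whole tumor RNA.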

How the data were processed

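Whole tumor RNA of 8 samples, labelled as separate tumors, was measured with a NanoString nCounter mouse panel (PanCancer Immune Profiling). The authors deposited the counts of 784 probes per tumor (750 endogenous, 20 housekeeping, 8 negative, 6 positive), whole numbers without scaling or background subtraction. Groups and replicate numbers came from the sample titles, and sex, strain and genotype from the labels. Dose, number of injections, age and the 10 days to collection came from the study's methods and results. Their text refers to the figures for the injection days and does not itself give day 7 as the first. The data were pooled from 2 experiments, and which tumor belongs to which is not given in the sources used here, so no value within an experiment was computed. The members, lists and tests were chosen with earlier results of these data known.

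The rounded mean of PBS 2 and PBS 4 was used as 1 sample. Each gene was tested with edgeR 4.0.16 (R 4.3.3; glmQLFit with its legacy setting, glmQLFTest), on 750 unfiltered genes with the housekeeping geometric mean as library size and Benjamini-Hochberg adjustment. Single members were also compared by two-sided exact permutation of mean log2(normalized count + 1) over 35 arrangements, and pairs of members by Pearson r and Spearman rho over 7 samples, adjusted over 28 pairs. Alternatives were TMM, DESeq2 1.42.0 size factors, total count, housekeeping genes with at least 100 counts, a filter at a mean of 20 counts, the DESeq2 Wald test, limma 3.58.1, the methods' t-test on log2 and on linear values, pseudocounts of 0.1 and 20, background subtraction, each sample left out, all 8 tumors separate, and a replicate block. The edgeR step was tested on simulated data, and the outcome of that test is not reported here.

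Genes named were every member; listed genes at an unadjusted p under 0.05 and the largest rise and fall of each list among genes with a mean of at least 20 normalized counts; and the 3 genes nearest to each abundant member. Ptprc, Emr1 and Ambp, and the markers beside them, were named after their values were seen. All 8 members matched RefSeq symbols by transcript accession. Python 3.11.15, scipy 1.17.1 and matplotlib 3.10.9 were used.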

Additional observations from a re-analysis of the deposited data

Results flagged for a closer look

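Within the 4 treated tumors, 2 of 39 named genes had a tumor far from the others, and chance gives about 1.95. Marker genes named beside the results are not among the 39, and the hepatocyte marker Ambp had 775 normalized counts in STING 4 and 2.48 to 11.9 in the other treated tumors. Bcl2l1, the gene nearest to Fos, was lower in STING 2, with a gap to the next tumor of 0.926 of the range of the 4 tumors. Cx3cl1, the gene nearest to Egr1, was lower in STING 3, with a gap of 0.868 of the range. Dixon's test at the 95% level has a lower limit than both gaps. These gaps were taken on normalized counts, where none of the 8 members passed that limit. On the log2(normalized count + 1) scale, Fos and Myc did pass it. As deviations from the gene mean on that scale, Fos had -0.231 in STING 2 and 0.273 to 0.366 in the other treated tumors. Myc had -0.243 in STING 1 and 0.024 to 0.078 in the others. The 3 control samples were too few for this comparison.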

How the results depend on the processing

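No member reached an adjusted p under 0.05 in the other settings that gave it one: 19 for 6 members, but not the DESeq2 Wald test or the filter at 20 counts for Egr2 and Egr3. In all, 135 of 150 member log2 fold changes kept their direction. The number of genes at an adjusted p under 0.05 was 0 in the main comparison, 0 to 7 with each sample left out (7 without STING 3 and 1 without PBS 3) and 52 with the Wald test of DESeq2. At an unadjusted p under 0.05 it was 143, and 84 (without STING 1) to 160 (without PBS 3) with each sample left out, 89 without STING 4. The edgeR dispersion estimate without the legacy setting, added after seeing the data, gave 153 and 0 adjusted. Values near 0 changed sign. The log2 fold change of Egr1 was -0.20 with TMM, -0.21 with DESeq2 size factors and -0.14 with the total count, and its difference of mean log2 values was -0.19, -0.21 and -0.15, and -0.0045 to 0.17 with each sample left out. Egr2 had log2 fold changes of 0.0066 with all 8 tumors separate, 0.16 with the replicate block, 0.086 with limma and with the methods' t-test on log2 values, and -0.47 to 0.85 with each sample left out. Its difference of mean log2 values was -0.089 with TMM, -0.10 with DESeq2 size factors, -0.067 with the total count, -0.0075 with a pseudocount of 20, -0.12 after background subtraction, -0.23 without PBS 2 and 4 and -0.14 to 0.63 with each other sample left out. Dusp4 had log2 fold changes of 0.21 without PBS 2 and 4, 0.055 with limma and with the methods' t-test on log2 values, and -0.52 to 0.068 with each other sample left out. Its difference of mean log2 values was -0.19 with TMM, -0.20 with DESeq2 size factors, -0.14 with the total count, -0.13 with all 8 tumors separate and with the replicate block, and -0.58 to 0.42 with each sample left out (0.32 without PBS 3). Myc ranged from -0.16 to 0.092, and from -0.15 to 0.087 as a difference of mean log2 values, with each sample left out. Its log2 fold change was -0.29 with TMM, -0.31 with DESeq2 size factors and -0.26 with the total count. Crebbp was 0.057 with all 8 tumors separate, 0.072 with the block, 0.009 with limma and the methods' t-test on log2 values and -0.12 to 0.13 with each sample left out (-0.028 without STING 4), and Cd44 was -0.24 to 0.082. The cause of these changes was not tested. No pair of members reached an adjusted p under 0.05 with TMM, all 8 tumors separate or without STING 4. The replicate numbers did not pair the tumors: deviations of same-numbered tumors correlated at -0.0857, -0.0897, -0.277 and -0.119, and none of the 4 controls was nearest to the treated tumor of its number. With the replicate block, 172 genes passed 0.05 before adjustment and 0 after. The Wald test of DESeq2 moved Tnfsf10, Lif and Kdr past the threshold (adjusted p = 0.0110, 0.0284 and 0.0284). Counting error limits Egr2 and Egr3, which had 2 to 18 counts.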
